A study of Mus musculus with 6 samples.

Results

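DNA methylation writers and erasers are described here in mouse leukemia cells after 3 days of panobinostat, an inhibitor of histone deacetylases, and after vehicle. The 8 genes are Dnmt1, Dnmt3a, Dnmt3b, Uhrf1, Tet1, Tet2, Tet3 and Tdg, found by Entrez gene ID among 27179 genes of the count table. Both groups came from the same A/E9a;NRASG12D leukemia, a line whose name joins a spliced RUNX1-RUNX1T1 fusion with a mutant NRAS, grown in C57BL/6 mice. Leukemia cells positive for GFP and negative for propidium iodide, a dye that enters dead cells, were sorted from the spleen, and RNA was profiled in 3 panobinostat and 3 vehicle libraries. No label ties the libraries to separate animals, and p-values therefore measure only how far these samples spread, which may be technical spread. As there is 1 leukemia line, nothing here extends to other leukemias.

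DNA methylation in mammals sits mostly on cytosines followed by guanine. DNMT3A and DNMT3B set new marks. DNMT1 copies marks onto the new strand after replication, and UHRF1 brings it there by binding hemimethylated sites. TET1, TET2 and TET3 oxidize methylcytosine in steps, and the glycosylase TDG cuts out the later oxidation products so that repair can put back an unmodified base. In myeloid leukemia DNMT3A and TET2 are known as recurrently mutated genes. Transcript levels are reported below; DNA methylation itself was not measured in these libraries.

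After panobinostat the maintenance pair was lower and one de novo enzyme was higher. Dnmt1 fell 1.42-fold and Uhrf1 fell 1.43-fold, while Dnmt3a rose 1.28-fold. Dnmt3b, Tet2, Tet3 and Tdg did not pass the test, and Tet1 was at the limit of detection in both groups. Of 8 genes 7 passed the filter on low counts, and 3 of these were called, against 21.0% of all 12916 genes tested. A call is an adjusted p (Benjamini-Hochberg, over all genes) under 0.05 in the quasi-likelihood test of edgeR. In the higher direction 1 of 7 was called, against 11.3% of all genes, and in the lower direction 2 of 7, against 9.72%. The median log2 fold change of the 7 was -0.17, and that of all tested genes 0.01. The groups did not overlap for 4 of the 7, with Dnmt3a higher in all panobinostat libraries (21.9% of all genes) and Dnmt1, Uhrf1 and Tdg lower (22.7% of all genes). All 3 calls were lost (0 of 7 called) when any 1 of panobinostat library 5 and vehicle libraries 2, 3 and 4 was left out. Libraries carry the leading number of their count column, since the columns name the group but no replicate. The column names hold further numbers whose meaning is not given. Vehicle libraries 2 and 3 share both of them, panobinostat libraries 1 and 6 share the first, and panobinostat library 1 alone has a different last number, so libraries counted as separate may share a source or batch.

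**Figure D1:**
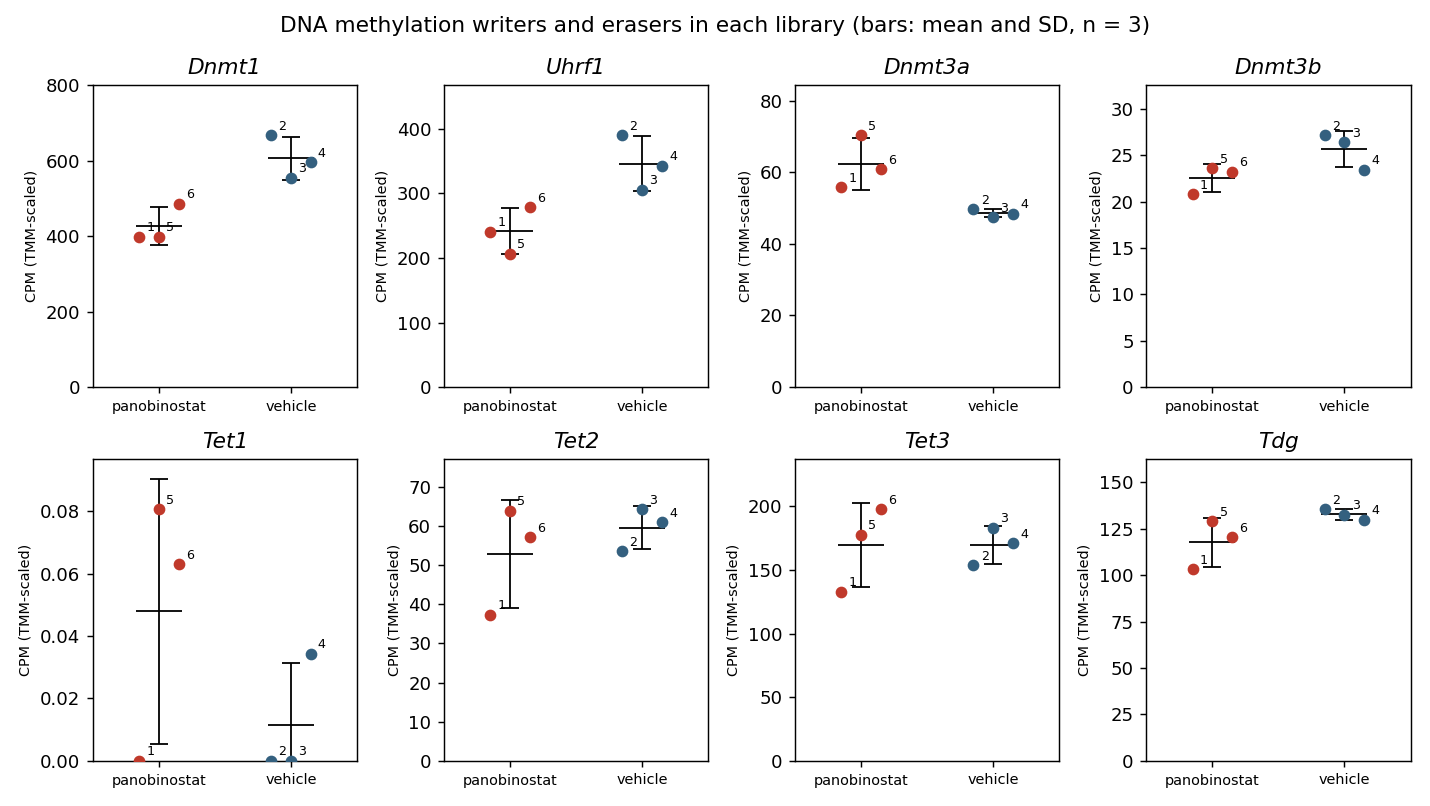
CPM (TMM-scaled counts per 1000000 counts, vertical axis from 0 in each panel) of the 8 genes in each library, with the library number beside each point and bars for mean and SD of 3 libraries. Dnmt1 and Uhrf1 lie lower in all panobinostat libraries than in any vehicle library, Dnmt3a lies higher, and Tet1 stays at or under 0.081 CPM.

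Dnmt1 and Uhrf1 moved together, so the sequence at their annotated starts is shown beside that of Dnmt3a, which moved the other way. The windows reach from 250 bases before to 50 bases after an annotated RefSeq start (build GRCm38.p6), 5′ to 3′ on the gene's strand. Capitals mark matches to TTTCCCGC, TTTCGCGC, TTTGCCGC or TTTGGCGC on either strand, the letters usually given for sites of E2F, a family of transcription factors of S phase genes. All 8 genes had at least 1 window, 13 windows in all. Dnmt1 and Dnmt3a had 3 windows each and Uhrf1 had 2, of which the one with a match, or for Dnmt3a the first, is printed. The windows are chr9:20952574-20952873 on the minus strand for Dnmt1, chr17:56304063-56304362 on the plus strand for Uhrf1 and chr12:3806730-3807029 on the plus strand for Dnmt3a.
Dnmt1: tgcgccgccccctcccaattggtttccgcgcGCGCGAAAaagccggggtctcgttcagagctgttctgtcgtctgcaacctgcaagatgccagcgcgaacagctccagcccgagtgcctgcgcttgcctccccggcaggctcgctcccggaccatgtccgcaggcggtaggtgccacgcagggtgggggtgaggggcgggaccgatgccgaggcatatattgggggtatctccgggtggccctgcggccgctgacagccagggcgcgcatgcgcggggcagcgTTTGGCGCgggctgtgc
Uhrf1: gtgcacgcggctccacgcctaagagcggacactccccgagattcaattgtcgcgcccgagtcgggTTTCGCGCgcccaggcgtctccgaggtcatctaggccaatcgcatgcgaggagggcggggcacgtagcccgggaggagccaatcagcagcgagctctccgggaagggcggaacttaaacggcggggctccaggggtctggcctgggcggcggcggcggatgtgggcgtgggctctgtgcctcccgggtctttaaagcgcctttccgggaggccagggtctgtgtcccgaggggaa
Dnmt3a: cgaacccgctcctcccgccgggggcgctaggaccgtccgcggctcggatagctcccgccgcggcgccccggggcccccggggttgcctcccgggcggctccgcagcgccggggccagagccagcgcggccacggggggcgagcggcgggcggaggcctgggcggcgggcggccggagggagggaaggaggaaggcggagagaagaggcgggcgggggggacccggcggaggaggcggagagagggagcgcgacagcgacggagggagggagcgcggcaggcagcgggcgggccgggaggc

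The printed Dnmt1 window held 2 such matches, one 219 bases before the annotated start of that window and one 33 bases after it. The other Dnmt1 windows, at chr9:20952930-20953229 and chr9:20959839-20960138, lie upstream on the minus strand. Both matches are therefore downstream of the annotated starts of those windows. The printed Uhrf1 window held 1 match, 185 bases before the start of that window. It lies downstream of the start of the other Uhrf1 window, at chr17:56303087-56303386. The other 11 windows, among them every window of Dnmt3a, Dnmt3b, Tet1, Tet2, Tet3 and Tdg, held 0. Over all 32841 windows of 300 bases, 2.27% held a match. All 4 motifs contain CG, and among the 2812 windows with 33 CpG or more the share was 4.27%. With windows of genes chosen after they were seen to move together, nothing is read from the difference. A match is a description of letters and not of binding, and sequence outside these windows was not searched. The windows also differed in CpG content, with 33 CpG in each of the printed Dnmt1 and Uhrf1 windows, 46 in that of Dnmt3a and 57 in that of Tet2, against a median of 7 over all windows.

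The libraries held 25794869 to 32571961 counts with panobinostat and 27259492 to 29548544 with vehicle, and 1 count was worth 0.0315 to 0.0403 CPM. No pair of libraries of a group was a duplicate, since their counts differed beyond sampling noise (chi-square over its degrees of freedom). Panobinostat library 1 stood apart, at 151 from library 5 and 121 from library 6, against 34.3 between libraries 5 and 6 and 13.8 to 30.9 between vehicle libraries. Of all genes 2715 were called, 1460 higher and 1255 lower; scaled by library size alone, 1135 were higher and 2065 lower. Without panobinostat library 5 or vehicle library 2, 3 or 4 the number called was 1637, 609, 1259 and 438, and without panobinostat library 1 it was 4056. The 8 progenitor markers summed to 6086 to 6819 CPM with panobinostat and 4693 to 5484 CPM with vehicle, with 3 called higher and 0 lower (median log2 fold change 0.41). These values moved with the groups, and their part in the results was not tested. Globin genes took 3.22% to 6.72% of counts with panobinostat, highest in library 1, and 0.614% to 0.847% with vehicle. Erythroid markers summed to 21854 to 49952 CPM with panobinostat and 4733 to 5846 CPM with vehicle, with 5 of 7 called higher, and their part in the results on methylation genes was not tested. Markers of other spleen cells were low as sums of their lists. They reached 42.2 CPM for 9 macrophage markers (9.74 to 42.2 with panobinostat and 7.23 to 13.1 with vehicle, 1 of 8 tested called higher, median log2 fold change 1.51), 17.4 CPM for 8 T cell markers (7.50 to 17.4 and 7.66 to 14.8) and 8.25 CPM for 7 B cell markers (4.19 to 8.25 and 3.07 to 6.10). Sums were 1.83 to 15.4 CPM with panobinostat and 4.17 to 10.6 CPM with vehicle for 5 NK cell markers, 4.88 to 11.6 and 4.32 to 7.04 CPM for 6 plasmacytoid dendritic cell markers, and 2.05 to 7.57 and 3.55 to 7.27 CPM for 8 neutrophil markers. No marker of these 6 lists was at 0 in all libraries. The 8 methylation genes together summed to 989 to 1224 CPM with panobinostat and 1315 to 1477 CPM with vehicle. In sorted bulk RNA a change in the mix of cells and a change in RNA per cell cannot be told apart.

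Per kilobase of transcript, which allows genes to be compared with each other, Dnmt1 and Uhrf1 were the highest when each gene was taken by its own row of counts. Levels were divided by the longest GENCODE transcript with a RefSeq match, and are given as CPM per kilobase. Dnmt1 was at 77.1 ± 9.10 with panobinostat and 109 ± 10.3 with vehicle (SD, n = 3 each), and Uhrf1 at 67.5 ± 10.1 with panobinostat and 96.6 ± 11.8 with vehicle. Tdg followed at 33.6 ± 3.78 with panobinostat and 37.9 ± 0.808 with vehicle. Summed with the near-identical rows described below it would be at 71.7 ± 10.6 with panobinostat and 78.9 ± 2.40 with vehicle, near Uhrf1, so its place depends on how those reads were assigned. Tet3 was at 15.5 ± 3.05 with panobinostat and 15.5 ± 1.37 with vehicle. The low group was Tet2, at 5.75 ± 1.50 with panobinostat and 6.49 ± 0.602 with vehicle, Dnmt3b, at 5.22 ± 0.350 with panobinostat and 5.94 ± 0.454 with vehicle, and Dnmt3a, at 6.44 ± 0.759 with panobinostat and 5.01 ± 0.120 with vehicle. The order of the last 3 is not firm. In vehicle cells Tet2 was above Dnmt3b by less than 1 SD of Tet2, and with the union of all exons as length Dnmt3b (5.03) came before Tet2 (3.53) and Dnmt3a (2.92). Dnmt1 and Uhrf1 differed from each other by about the SD of either.

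Among the maintenance genes, Dnmt1 (Entrez gene 13433; GRCm38 chromosome 9, 20907206 to 20959888, minus strand), the enzyme that copies methylation after replication, had 398, 399 and 486 CPM in panobinostat libraries 1, 5 and 6, against 667, 555 and 596 CPM in vehicle libraries 2, 3 and 4. Every panobinostat library was below every vehicle library, and the gap between the groups was wider than the SD of either. The log2 fold change was -0.50 ± 0.12 (SE; 95% interval -0.79 to -0.22) with an edgeR adjusted p of 0.029. Over all tested genes the groups did not overlap in 44.6%, so such a separation is common in these data. The exact permutation test of the 3 against 3 libraries gave p = 0.1, the smallest that design allows, 2-sided.

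Uhrf1 (Entrez gene 18140; chromosome 17, 56303337 to 56323486, plus strand), the reader of hemimethylated DNA that recruits DNMT1, had 241, 206 and 279 CPM in panobinostat libraries 1, 5 and 6, against 390, 306 and 343 CPM in vehicle libraries 2, 3 and 4. The groups did not overlap, although panobinostat library 6 and vehicle library 3 were close. The log2 fold change was -0.52 ± 0.14 (SE; 95% interval -0.85 to -0.18) with an edgeR adjusted p of 0.041. The mean proportion of the 2 genes was nearly the same in both groups, but single libraries differed. Uhrf1 counts over Dnmt1 counts averaged 0.565 ± 0.0442 with panobinostat and 0.570 ± 0.0170 with vehicle (SD, n = 3 each). This ratio does not depend on library scaling. It was 0.605, 0.517 and 0.574 in panobinostat libraries 1, 5 and 6, against 0.585, 0.552 and 0.575 in vehicle libraries 2, 3 and 4. Panobinostat libraries 1 and 5 thus lay outside the vehicle range, on opposite sides. The exact permutation p of 0.8 does not show that the ratios are equal.

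The call of Dnmt1 was lost without vehicle library 2 (edgeR adjusted p = 0.10), vehicle library 3 (0.056), vehicle library 4 (0.10) or panobinostat library 5 (0.073). That of Uhrf1 was lost without the same 4 libraries (0.14, 0.061, 0.13 and 0.092). The direction of both held in all 6 of these fits, with log2 fold changes from -0.60 to -0.43 for Dnmt1 and from -0.63 to -0.41 for Uhrf1.

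**Figure D2:**
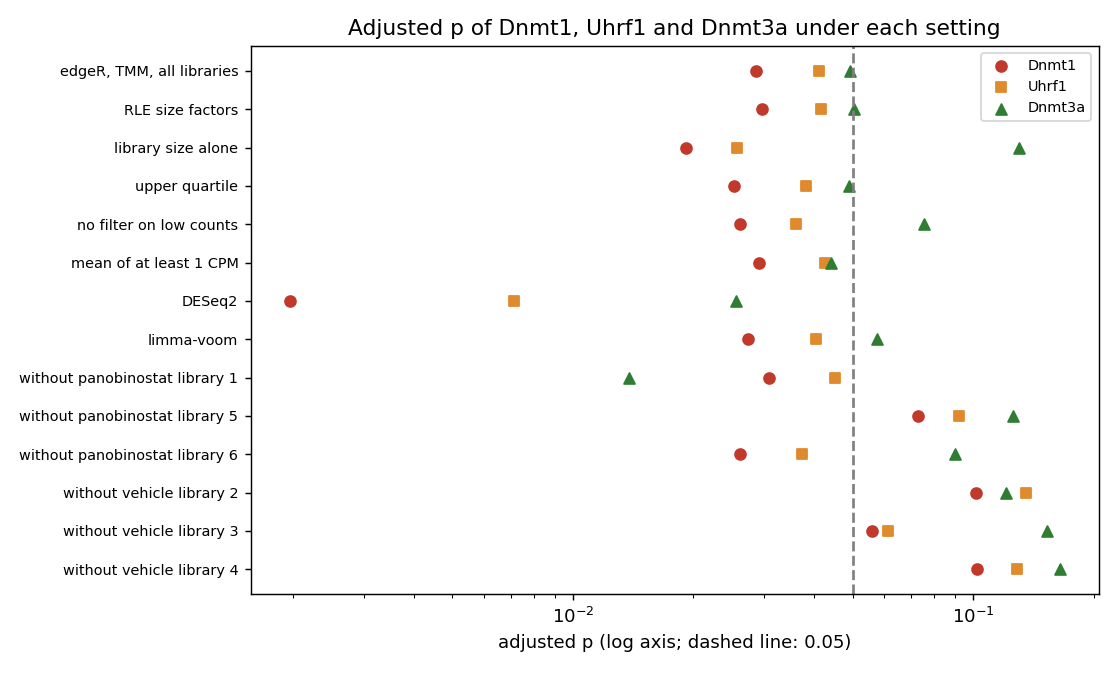
Adjusted p (horizontal, log axis) of Dnmt1, Uhrf1 and Dnmt3a under each setting, with the threshold of 0.05 dashed. Dnmt1 and Uhrf1 stay under 0.05 in all 7 alternatives that keep every library and cross it in 4 of 6 fits with a library left out, and Dnmt3a is called in 3 of the 7 and 1 of the 6.

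Maintenance methylation follows replication, so S phase genes are given beside it. Of 30 S phase genes tested 11 fell and 1 rose (40.0% called, against 21.0% of all genes), with a median log2 fold change of -0.47. Among them were Tyms, which makes thymidylate (1.65-fold lower, edgeR adjusted p = 0.0092), and Pold1 and Pola1, catalytic subunits of replicative polymerases (log2 fold changes -0.70 and -0.86, edgeR adjusted p 0.017 for both). The calls of Pold1 and Pola1 were lost without vehicle library 2 or 4, and that of Tyms without vehicle library 4 (edgeR adjusted p up to 0.078). Against 12 S phase calls with all libraries, there were 4 without panobinostat library 5, and 1, 5 and 0 without vehicle libraries 2, 3 and 4. Scaled by library size alone, 19 of the 30 fell and 0 rose, and with DESeq2 19 fell and 1 rose.

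Set against these genes, the group means of Dnmt1 and Uhrf1 hardly differed, but single libraries did. For Dnmt1 panobinostat library 1 lay below every vehicle library and panobinostat library 5 above. For Uhrf1 panobinostat libraries 1 and 5 both lay below every vehicle library. The log2 CPM of Dnmt1 exceeded the mean log2 CPM of the 30 S phase genes by 2.19, 2.55 and 2.43 in panobinostat libraries 1, 5 and 6, against 2.41, 2.49 and 2.41 in vehicle libraries 2, 3 and 4. The difference between groups was -0.05 on the log2 scale, and the groups overlapped (exact permutation p = 0.9). Uhrf1 exceeded that mean by 1.46, 1.60 and 1.62 in the panobinostat libraries and by 1.64, 1.63 and 1.61 in the vehicle libraries, a difference of -0.06 (exact permutation p = 0.2). These p-values come from 3 against 3 libraries and do not show that the values are equal. The S phase mean itself was 6.35 ± 0.22 with panobinostat and 6.80 ± 0.17 with vehicle (log2 CPM, SD, n = 3 each). Panobinostat library 5 lay farthest from vehicle in 26 of the 30 S phase genes, and it also held the lowest Uhrf1 value. This measure was chosen after the values were seen.

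**Figure D3:**
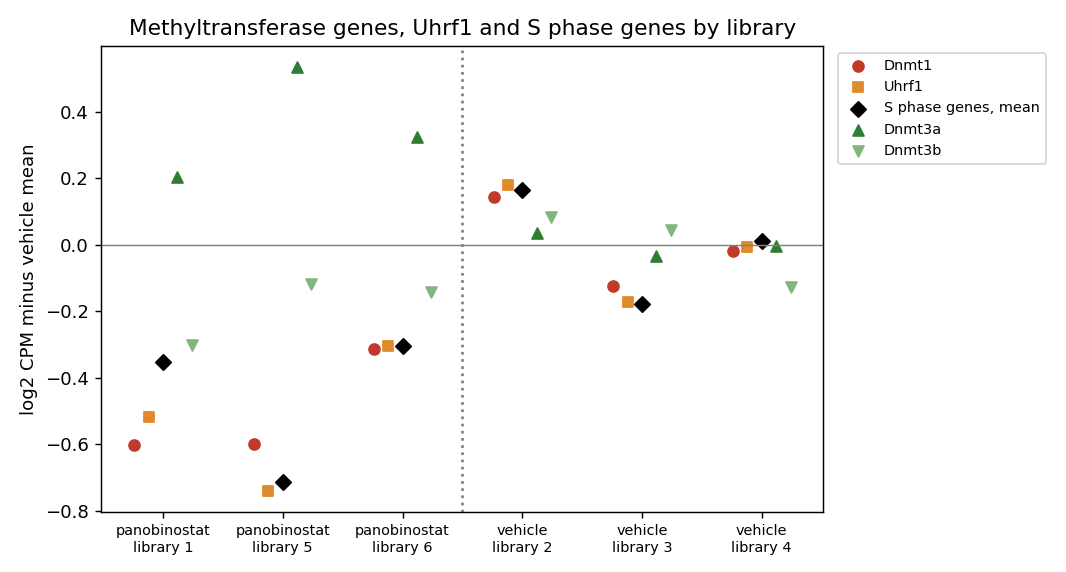
Log2 CPM of 4 genes and of the mean of 30 S phase genes in each library, as difference from the mean of the vehicle libraries. Dnmt1 and Uhrf1 lie close to the S phase mean in most libraries, and Dnmt3a lies above 0 in all 3 panobinostat libraries.

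The de novo enzymes did not move as a pair. Dnmt3a (Entrez gene 13435; chromosome 12, 3801559 to 3914443, plus strand) had 55.9, 70.3 and 60.8 CPM in panobinostat libraries 1, 5 and 6, against 49.8, 47.4 and 48.4 CPM in vehicle libraries 2, 3 and 4. All panobinostat libraries were above all vehicle libraries, and they spread more widely than the vehicle libraries did. The log2 fold change was 0.36 ± 0.11 (SE; 95% interval 0.11 to 0.61), and the edgeR adjusted p of 0.049 lay just inside the threshold. The call was lost with 4 of 7 alternatives that kept all libraries, up to an adjusted p of 0.13 when libraries were scaled by size alone. Leaving out panobinostat library 5 (0.13) or 6 (0.090) also ended it, as did leaving out vehicle library 2 (0.12), 3 (0.15) or 4 (0.16). Its antisense neighbor Dnmt3aos shares 133 exon bases with it and had 5 counts over all libraries, so its reads add little.

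Dnmt3b (Entrez gene 13436; chromosome 2, 153649411 to 153687730, plus strand), the second de novo enzyme, had 20.8, 23.6 and 23.2 CPM in panobinostat libraries 1, 5 and 6, against 27.1, 26.4 and 23.4 CPM in vehicle libraries 2, 3 and 4. The groups overlapped at panobinostat library 5 and vehicle library 4. The log2 fold change of -0.19 ± 0.11 did not pass (edgeR adjusted p = 0.26; 95% interval -0.45 to 0.07). A stretch of 1434 bases of the Dnmt3b transcript is 93.9% identical to Dnmt3c, a rodent de novo enzyme, which has no value here.

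Ratios within a library show the same contrast without any scaling. Dnmt3a counts over Dnmt3b counts were 2.69, 2.98 and 2.62 in panobinostat libraries 1, 5 and 6, against 1.83, 1.80 and 2.07 in vehicle libraries 2, 3 and 4. Dnmt3a counts over Dnmt1 counts were 0.140, 0.176 and 0.125 in the panobinostat libraries, against 0.0746, 0.0855 and 0.0812 in the vehicle libraries. Neither ratio overlapped between groups (exact permutation p = 0.1 for each, the smallest possible). For Dnmt3a over Dnmt1 this was fixed beforehand, because in CPM Dnmt3a lay above and Dnmt1 below every vehicle library. Dnmt3a over Dnmt3b was fixed as well by the ranges of the single genes. The gap between groups in Dnmt3a (55.9 against 49.8 CPM) was larger than the overlap in Dnmt3b (23.6 against 23.4 CPM). Neither ratio therefore adds support to the changes of the single genes. The log2 CPM of Dnmt3a minus the S phase mean also did not overlap, and was higher by 0.81 with panobinostat. This too was fixed, since the S phase mean was lower in every panobinostat library than in any vehicle library. These 3 measures were among 13 compared in this way, chosen after the values were seen, and 1 more of the 13, the S phase mean itself, did not overlap.

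The erasers showed no called change. Tet1 (Entrez gene 52463; chromosome 10, 62804570 to 62887469, minus strand) had 0, 2 and 2 counts in panobinostat libraries 1, 5 and 6, against 0, 0 and 1 counts in vehicle libraries 2, 3 and 4, and it did not pass the filter. A count of 0 allows up to 3 counts, or 0.0946 to 0.121 CPM, in these libraries, and no fold change is given.

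Tet2 (Entrez gene 214133; chromosome 3, 133463677 to 133545136, minus strand), the TET enzyme most often mutated in blood cancers, had 37.3, 63.8 and 57.1 CPM in panobinostat libraries 1, 5 and 6, against 53.5, 64.3 and 60.9 CPM in vehicle libraries 2, 3 and 4. Panobinostat library 1 alone lay below the vehicle range, and it was also the library with the most globin and macrophage marker counts, whose part in the result was not tested. The log2 fold change was -0.17 ± 0.19 (edgeR adjusted p = 0.55; 95% interval -0.63 to 0.28), and without panobinostat library 1 it was 0.02.

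Tet3 (Entrez gene 194388; chromosome 6, 83362373 to 83457208, minus strand) was the most abundant TET transcript per kilobase. It had 133, 178 and 198 CPM in panobinostat libraries 1, 5 and 6, against 154, 183 and 171 CPM in vehicle libraries 2, 3 and 4. Panobinostat libraries held both the lowest and the highest value. The log2 fold change was 0.00 ± 0.15 (edgeR adjusted p = 1.00), and its 95% interval of -0.36 to 0.36 allows changes of up to about the size called for Dnmt3a. Of the 7 tested genes, 5 lay farthest from vehicle in panobinostat library 1 and 2 in library 5.

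Tdg (Entrez gene 21665; chromosome 10, 82629814 to 82650799, plus strand), the glycosylase, had 103, 129 and 121 CPM in panobinostat libraries 1, 5 and 6, against 136, 133 and 130 CPM in vehicle libraries 2, 3 and 4. The groups did not overlap, by a margin of less than 1 CPM between panobinostat library 5 and vehicle library 4, and the change did not pass (log2 fold change -0.17 ± 0.10, edgeR adjusted p = 0.26; 95% interval -0.41 to 0.06). Its value is uncertain because near-identical copies were counted in their own rows. Tdg-ps matches the Tdg transcript over 2968 bases at 98.7% identity and Tdg-ps2 over 1194 bases at 99.2%. The Tdg row held 47.5% of the counts of the 3 rows, Tdg-ps2 42.0% and Tdg-ps 10.5%. Neither copy was called (log2 fold changes -0.10 and -0.14 for Tdg-ps2 and Tdg-ps, edgeR adjusted p 0.60 and 0.64), and the sum of the 3 rows was 251 ± 37.2 CPM with panobinostat and 276 ± 8.40 CPM with vehicle (SD, n = 3 each), with overlapping groups. A processed copy of Uhrf1 (Gm5648, 98.3% identical over 1590 bases) has no value here.

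**Figure D4:**
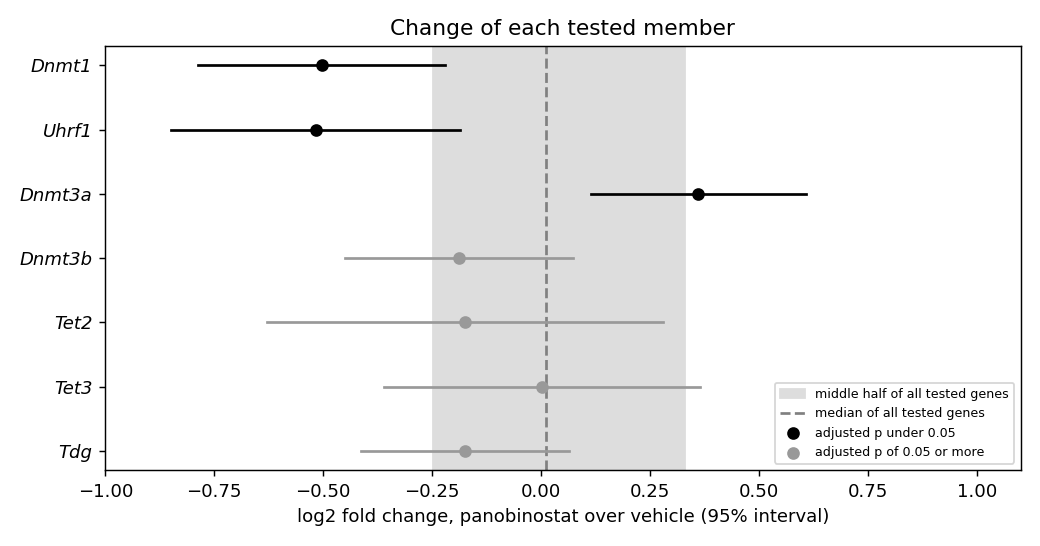
Log2 fold change of each tested gene, panobinostat over vehicle, with its 95% interval; black marks an adjusted p under 0.05. Dnmt1 and Uhrf1 lie left of the quartiles of all tested genes (-0.25 to 0.33), Dnmt3a lies just right of them, and the other 4 lie between them.

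The 3 called genes changed less than most called genes. The median size of a called log2 fold change was 0.71, and 73.8% of called genes changed at least as much as Dnmt1. Likeness was taken as the distance between centered log2 CPM profiles over the 6 libraries, among 10066 other genes averaging 5 CPM or more. The genes most like Dnmt1 were Nat10, Gstcd and Ncl (root mean square distance 0.018 to 0.029). Those most like Uhrf1 were Prim2, Pclaf and Chaf1a (0.027 to 0.035), and those most like Dnmt3a were Acad11, Phf21a and Snx2 (0.028 to 0.032). Uhrf1 itself lay at 0.071 from Dnmt1 and ranked 91 in that order.

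Of the 10 tested genes listed as partners of DNMT1 and UHRF1, 5 fell and 0 rose (50.0% called, against 21.0% of all genes). The median log2 fold change was -0.49. The list also holds general replication genes and relatives, and not every gene in it is known to work with DNMT1 or UHRF1. With panobinostat library 5 left out 2 were called, and with vehicle library 2 or 4 left out 1. Cdca7, a zinc finger protein that works with the remodeler HELLS, had 61.9, 63.4 and 80.6 CPM in panobinostat libraries 1, 5 and 6, against 156, 149 and 159 CPM in vehicle libraries 2, 3 and 4. It was 2.26-fold lower, with clearly separate groups, and its call held without any 1 library (edgeR adjusted p = 0.0036, and at most 0.033). Hells itself was 1.54-fold lower (edgeR adjusted p = 0.015). Pclaf, a partner of the replication clamp PCNA, and Cdca7l, a relative of Cdca7, had log2 fold changes of -0.58 and -0.58 (edgeR adjusted p 0.027 and 0.031). These 3 calls were lost without vehicle library 2 or 4, those of Pclaf and Cdca7l also without panobinostat library 5 (0.068 to 0.11 at the highest). Uhrf2, the relative of Uhrf1, did not pass (log2 fold change -0.07, edgeR adjusted p = 0.68) and was named after its value was seen.

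Partners of de novo methylation were not called more often than all genes. Of 6 tested 1 fell and 0 rose (16.7% called, against 21.0% of all genes). Their median log2 fold change was 0.02, but -0.09 with library size alone and -0.03 over genes averaging 1 CPM or more. The one called was Trim28, a corepressor that protects methylation at imprinted regions and retroelements, at 325 ± 22.4 CPM with panobinostat and 433 ± 23.6 CPM with vehicle (SD, n = 3 each; edgeR adjusted p = 0.025). Its call was lost without panobinostat library 5 or any 1 vehicle library (up to 0.10). Library size alone gave 2 calls, as did leaving out panobinostat library 1 or 6. Dnmt3l, the cofactor of the de novo enzymes in germ cells, had 1 count in all libraries together.

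Genes listed with the TET enzymes and the metabolism around their cosubstrate 2-oxoglutarate went both ways. The list takes in wider mitochondrial genes, and not every gene in it acts with TET enzymes or on 2-oxoglutarate. Of 17 tested 3 rose and 5 fell (47.1% called, against 21.0% of all genes), with a median log2 fold change of -0.16. With panobinostat library 5 or vehicle library 3 left out 5 were called, and with vehicle library 2 or 4 left out 2. Gadd45g, a stress-induced gene linked to demethylation, had 49.0, 47.4 and 37.6 CPM in panobinostat libraries 1, 5 and 6, against 13.4, 15.7 and 14.4 CPM in vehicle libraries 2, 3 and 4. It was 3.08-fold higher, and its call held without any 1 library (edgeR adjusted p = 0.0021, and at most 0.025). Cxxc5, which carries a CXXC domain related to those of TET proteins, rose from a low level, at 2.54 ± 1.11 CPM with panobinostat and 0.547 ± 0.142 CPM with vehicle (edgeR adjusted p = 0.013). Idh2 and Idh3a, isocitrate dehydrogenases that make 2-oxoglutarate, were lower by 0.62 and 0.74 on the log2 scale (edgeR adjusted p 0.0081 and 0.012). The calls of Cxxc5 and Idh3a were lost without vehicle library 2 or 4 (up to 0.069).

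Glycosylases, deaminases and base excision repair genes, which act after or beside TDG, also went both ways. Of 16 tested 3 rose and 3 fell (37.5% called, against 21.0% of all genes), with a median of -0.10. With vehicle library 2 or 3 left out 3 were called, and with vehicle library 4 left out 2. Parp1, a sensor of DNA breaks, had 197, 156 and 206 CPM in panobinostat libraries 1, 5 and 6, against 466, 342 and 368 CPM in vehicle libraries 2, 3 and 4, and fell 2.11-fold (edgeR adjusted p = 0.0072, and at most 0.040 without 1 library). Apobec1, a cytidine deaminase, rose 3.06-fold to 13.1 ± 3.19 CPM with panobinostat, against 4.27 ± 0.399 CPM with vehicle (edgeR adjusted p = 0.0056, and at most 0.041). Apex1, the endonuclease that cuts abasic sites, fell 1.63-fold (edgeR adjusted p = 0.012; 0.054 without vehicle library 4), and the glycosylase Neil1 rose 2.28-fold (0.015; lost without any 1 vehicle library, up to 0.076).

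Among readers of methylated DNA and relatives listed with them, 2 genes rose and 1 fell of 9 tested (33.3% called, against 21.0% of all genes). The median was 0.18, and not every gene of this list is known to bind methylated DNA. Both DESeq2 and the fit without panobinostat library 1 called 5, and leaving out any 1 vehicle library gave 1. Zbtb4, a zinc finger protein that binds methylated CpG, was at 57.8 ± 10.8 CPM with panobinostat and 22.0 ± 2.19 CPM with vehicle (edgeR adjusted p = 0.0042, and at most 0.033 without 1 library). Mbd2, a methyl-CpG binding repressor, rose by 0.41 on the log2 scale (0.030), and Mbd3, a relative in the NuRD complex, fell by 0.34 (0.039). The call of Mbd2 was lost with scaling by library size alone and without any 1 vehicle library (up to 0.14), and that of Mbd3 without any 1 library other than panobinostat library 1 (up to 0.13).

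In the folate and methionine cycles that supply the methyl group, 7 of 14 tested genes fell and 1 rose (57.1% called, against 21.0% of all genes). The median log2 fold change was -0.44. Ahcy, which clears the methyltransferase product S-adenosylhomocysteine, was at 122 ± 12.9 CPM with panobinostat and 189 ± 11.3 CPM with vehicle (edgeR adjusted p = 0.011). Tyms, given above, and the serine hydroxymethyltransferases Shmt1 and Shmt2 (log2 fold changes -0.88 and -0.62, edgeR adjusted p 0.015 and 0.021) were the other named genes. The calls of Ahcy, Shmt1 and Shmt2 were lost without vehicle library 2 or 4, and that of Shmt2 also without vehicle library 3 (up to 0.084). With panobinostat library 5 left out 5 were called, and with vehicle libraries 2, 3 and 4 left out 1, 4 and 0. Tyms stands both in this list and among the S phase genes. Mat2a, which makes the donor S-adenosylmethionine, did not pass (log2 fold change -0.05, edgeR adjusted p = 0.83) and was named after its value was seen.

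**Figure D5:**
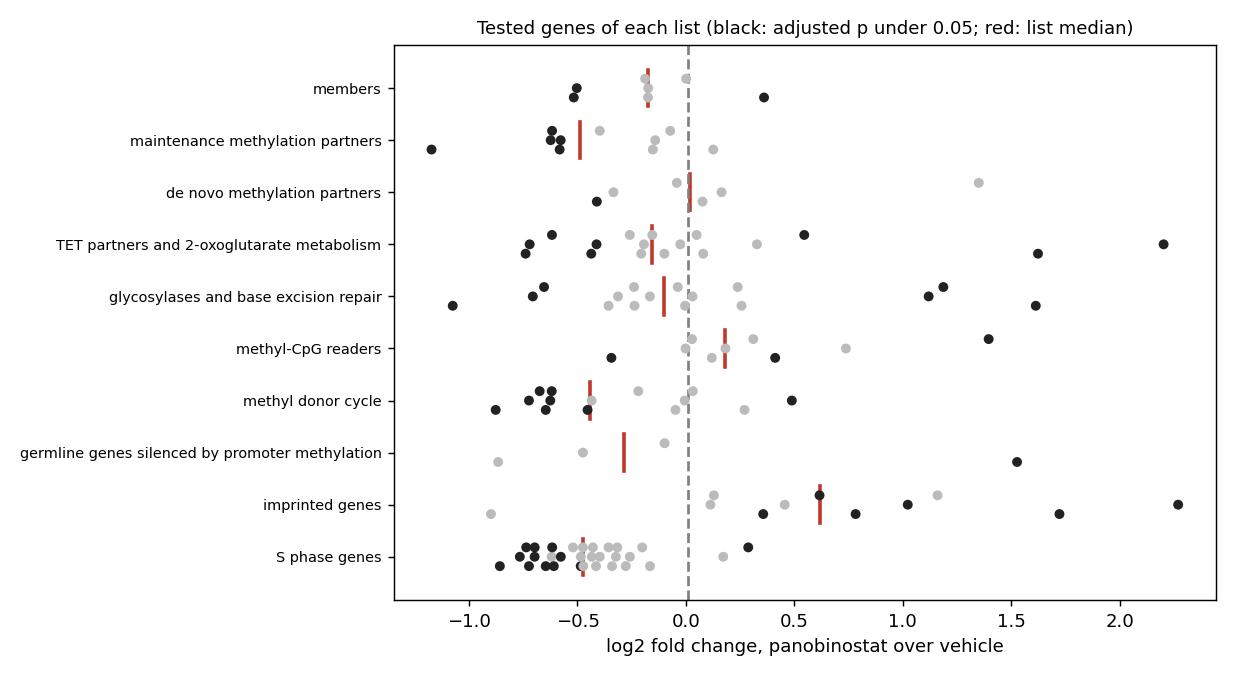
Log2 fold change, panobinostat over vehicle, of the tested genes of each list, with called genes in black, list medians in red and the median of all tested genes dashed. Medians lie between -0.49 for maintenance partners and 0.62 for imprinted genes.

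Genes whose silencing is known to depend on DNA methylation gave a mixed picture. Of 30 germline genes 11 had 0 counts in all libraries, and 4 were abundant enough to test. Their summed level was 6.84 to 9.32 CPM with panobinostat and 6.88 to 8.11 CPM with vehicle. Brdt, the testis member of the BET bromodomain family, was the 1 called (edgeR adjusted p = 0.015). It was at 3.01 ± 0.934 CPM with panobinostat and 1.04 ± 0.119 CPM with vehicle. The list thus had 1 of 4 tested called, against 21.0% of all genes, and a median log2 fold change of -0.29. With so few genes tested, this count cannot show a difference from all genes. The call of Brdt was lost without any 1 vehicle library (up to 0.079). Without panobinostat library 1, 2 genes were called, 1 higher and 1 lower.

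Imprinted genes, which are expressed from 1 parental allele under the control of methylated regions, rose in 6 of 11 tested and fell in 0. The 6 called are 54.5% of those tested, against 21.0% of all genes. Another 17 of the 28 counted were not abundant enough to test. With vehicle library 2 or 4 left out, 1 was called. Mest, an imprinted hydrolase, had 394, 697 and 552 CPM in panobinostat libraries 1, 5 and 6, against 92.4, 125 and 123 CPM in vehicle libraries 2, 3 and 4. It was 4.82-fold higher, and its call held without any 1 library (edgeR adjusted p = 0.0036, and at most 0.031). Cdkn1c, the cell cycle inhibitor p57, was at 15.8 ± 7.41 CPM with panobinostat and 4.77 ± 1.19 CPM with vehicle (edgeR adjusted p = 0.022). Zrsr1, a splicing factor, and Grb10, an adaptor of insulin signaling, were 2.03-fold and 1.72-fold higher (0.013 and 0.016). The calls of these 3 were lost without vehicle library 2 or 4, and that of Cdkn1c also without panobinostat library 6 (up to 0.090). Counts of whole genes do not tell the parental alleles apart. Nothing in these libraries measures methylation at these genes.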

How the data were processed

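Sorted leukemia cells gave mRNA libraries, per the labels' protocols. The authors deposited raw counts per Entrez gene ID. The submitters' processing notes name HISAT2 2.1.0 and featureCounts (Subread 2.0.0) with build mm10, beside cutadapt 2.1, FastQC 0.11.6 and limma. The sources used here do not give the annotation, the strand setting or how reads with several placements were counted. A column's ending gave its group, and 0 columns were left out. Names and positions came from RefSeq for GRCm38, and lengths and overlaps from GENCODE. Near-identical transcripts were sought with blastn.

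Low genes were removed with filterByExpr, leaving 12916, and TMM scaling was applied. The quasi-likelihood test of edgeR 4.0.16 in R 4.3.3 compared panobinostat with vehicle with no covariate. The p-values were adjusted over all 12916 genes by Benjamini-Hochberg. The test was checked on simulated data with 200 changed genes. Those changes were larger than the changes of Dnmt1, Uhrf1 and Dnmt3a, so the check does not bear on calls of that size. The SE is the size of the log2 fold change over the square root of its F value. CPM values were computed here. Alternatives were DESeq2 1.42.0, limma-voom 3.58.1, 3 other scalings, 2 other filters and leaving out each of the 6 libraries. The count floor covers counting error only.

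The 8 genes, the lists and the rules were chosen with earlier results of these data known. From each of the 9 other lists, up to 4 called genes with the smallest p are named, and for each called gene of the 8 the 3 with the nearest profile; 1 gene that the rule names is not reported here.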

Additional observations from a re-analysis of the deposited data

How the results depend on the processing

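Dnmt1 and Uhrf1 kept their direction in all 13 alternatives and their call in the 7 that kept every library. Dnmt3a kept its direction in all 13, but its call was lost with RLE size factors (log2 fold change 0.36, edgeR adjusted p = 0.051), library size alone (0.25, 0.13), no filter on low counts (0.34, 0.075) and limma-voom (0.35, 0.057); library size alone also moved the median of all genes by over 0.1, to -0.10, and the share of higher genes among those called to 35.5%, against 53.8%. With 1 library left out, log2 fold changes ranged from -0.60 to -0.43 for Dnmt1, from -0.63 to -0.41 for Uhrf1, from 0.26 to 0.43 for Dnmt3a, from -0.33 to 0.023 for Tet2 (0.023 without panobinostat library 1) and from -0.12 to 0.15 for Tet3. Tet3, close to 0 throughout, was below 0 with library size alone (-0.10), upper quartile scaling (-0.011), no filter (-0.016) and limma-voom (-0.015). Dnmt3b, Tet2, Tet3 and Tdg were not called in any of the 13 alternatives. Between 0 and 3 of the 8 genes, and between 438 and 4056 of all genes, were called with 1 library left out; fits without a library have fewer samples. No paired analysis was possible because the count columns carry no replicate number that matches the labels. Tet1 had 5 counts in all, too few to test at this depth.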
